A study of Mus musculus with 4 samples.

Results

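Fibroblast growth factor (FGF) signalling was described in mouse epiblast stem cells through 8 genes of the deposited table, which held 15429 genes in all. They were Fgfbp1, a secreted FGF-binding protein; the receptors Fgfr1, Fgfr2, Fgfr3 and Fgfr4; the docking protein Frs2; and the ligands Fgf8 and Fgf15. The genes were taken by symbol, and they were chosen by FPKM values of these libraries, with the difference between Tox4 esiRNA and Luc esiRNA in view. Their differences between these groups are therefore a description; calls of the fit across all genes are counted once, and support nothing here. RNA selected for poly(A) was sequenced from 2 libraries transfected with Tox4 esiRNA and 2 transfected with the control, Luc esiRNA. An esiRNA is a pool of short interfering RNAs cut by an enzyme from long double-stranded RNA, and Tox4 encodes an HMG-box protein. All 4 libraries came from the line OE7, which comes from the mouse embryo after implantation and carries the Oct4-Gip transgene, at passages 21 to 25, on fibronectin with Activin A at 20 ng/ml and Fgf2 at 12 ng/ml. Both groups were therefore supplied with an FGF ligand from outside, and the libraries stand for 1 line. The labels do not say whether a group's 2 libraries were separate cultures, and a p-value then speaks only of library-to-library spread, which may be technical in origin.

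FGFs are secreted proteins that bind receptor tyrosine kinases together with heparan sulfate, a sulfated sugar chain carried by proteins of the cell surface and matrix. An activated receptor phosphorylates Frs2, which recruits Grb2 and Sos1 and passes the signal through Ras to the kinases Map2k1 and Mapk3 of the ERK cascade. Fgfbp1 binds FGFs held in the matrix and releases them in a form that can reach a receptor. In the mouse embryo Fgfr1 and Fgf8 are needed for cells to move through the primitive streak, and epiblast stem cells are kept in culture with Activin A and Fgf2.

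The libraries held 14739221 and 12778044 reads assigned to genes with Tox4 esiRNA, against 19008803 and 14998194 with Luc esiRNA. Tox4 itself had 8.65 and 8.89 FPKM with Tox4 esiRNA, against 16.7 and 17.5 FPKM with Luc esiRNA. FPKM is a read number scaled to gene length and library depth. Pou5f1, the gene of Oct4, had 583 and 613 FPKM with Tox4 esiRNA, against 588 and 582 FPKM with Luc esiRNA. All 11 markers of primed epiblast were in the table, and their summed level was 1452 to 1488 FPKM with Tox4 esiRNA and 1469 to 1487 FPKM with Luc esiRNA. Pou5f1 held a large share of that sum, and 2 of the 11 passed the limma test, in opposite directions, where 4.51% of all tested genes passed. Cldn6, a claudin of tight junctions, had 18.9 FPKM in both Tox4 esiRNA libraries, against 28.9 and 29.4 FPKM with Luc esiRNA (limma adjusted p = 0.00288). Sox2, a core pluripotency factor, had 93.2 and 87.6 FPKM with Tox4 esiRNA, against 76.3 and 76.4 FPKM with Luc esiRNA (limma adjusted p = 0.0355); it did not pass without Tox4 esiRNA replicate 1 or without either Luc esiRNA library, with adjusted p up to 0.179. Naive pluripotency markers, 4 of 9 of them in the table, summed to 5.72 to 6.53 FPKM with Tox4 esiRNA and 6.93 to 7.54 FPKM with Luc esiRNA. The fibroblast list, 7 of 9 in the table, summed to 19.1 to 20.0 FPKM with Tox4 esiRNA and 20.8 to 21.0 FPKM with Luc esiRNA. The endoderm list, 4 of 7, summed to 13.2 to 14.7 FPKM with Tox4 esiRNA and 14.7 to 15.1 FPKM with Luc esiRNA, and the trophoblast list, 4 of 7, to 15.1 to 16.6 FPKM with Tox4 esiRNA and 16.5 to 20.4 FPKM with Luc esiRNA.

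The promoters of Fgfbp1 and Fgfr2 are shown because these were the members with the lowest and the highest ratio between the groups. Each window runs 5′ to 3′ on the strand of the gene, from 250 bases before to 50 bases after the RefSeq start on GRCm38.p6, and matches to the motifs searched are in capitals. RefSeq windows were found for 5 of the 8 genes.
Fgfbp1, chr5:43981750-43982049, minus strand: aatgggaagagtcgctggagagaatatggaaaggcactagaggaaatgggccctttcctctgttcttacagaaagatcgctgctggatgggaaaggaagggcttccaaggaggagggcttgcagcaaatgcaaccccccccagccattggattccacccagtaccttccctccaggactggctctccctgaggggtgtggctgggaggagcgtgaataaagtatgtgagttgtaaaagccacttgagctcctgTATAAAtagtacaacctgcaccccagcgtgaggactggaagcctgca
Fgfr2, chr7:130266759-130267058, minus strand: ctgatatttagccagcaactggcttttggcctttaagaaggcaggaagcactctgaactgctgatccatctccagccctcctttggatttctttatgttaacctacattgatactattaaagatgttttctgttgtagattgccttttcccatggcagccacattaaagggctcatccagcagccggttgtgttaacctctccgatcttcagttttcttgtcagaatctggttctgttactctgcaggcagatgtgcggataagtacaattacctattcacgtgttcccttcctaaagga
Motifs were searched on both strands: the TATA box as TATAAA, the AP-1 site as TGANTCA, the C/EBP site as TTGCNNAA, the GC box as GGGCGG, the octamer as ATGCAAAT, the ETS site as CCGGAAG and the E-box of ZEB and Snail factors as CAGGTG. The Fgfbp1 window held 1 match, TATAAA on the strand of the gene at bases 43981791 to 43981796, and 13.6% of all 32851 promoters of the table hold these letters. It lies just inside the RefSeq transcript, and 27 bases before the annotated start of the transcript with 2 exons and 12 bases before that of the transcript with 3 exons. None of these letters were in the Fgfr2 window, which says nothing about other motifs or other starts of that gene. The GC content was 53.3% in the Fgfbp1 window and 43.7% in the Fgfr2 window, against a median of 52.7% over all promoters. The windows of Fgfr3, Fgfr4 and Frs2 held 2 to 4 matches each, mostly GGGCGG, which 35.7% of all promoters hold. The shares of all promoters with a match were 7.81% for TGANTCA, 10.8% for TTGCNNAA, 1.74% for ATGCAAAT, 8.86% for CCGGAAG and 20.2% for CAGGTG.

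Fgfbp1 stood lower with Tox4 esiRNA. It had 13.7 and 13.8 FPKM with Tox4 esiRNA, against 39.5 and 35.9 FPKM with Luc esiRNA. These values rested on 228 and 199 reads with Tox4 esiRNA and on 848 and 608 reads with Luc esiRNA. Both Tox4 esiRNA libraries lay far below both Luc esiRNA libraries, and the gap was much wider than the spread within a group. The means were 13.7 ± 0.0666 FPKM with Tox4 esiRNA and 37.7 ± 2.55 FPKM with Luc esiRNA (SD, n = 2 each), a ratio of 0.365. The difference in log2(FPKM + 1) was -1.39, where the added 1 shrinks changes of scarce genes. It was -1.46 to -1.32 when 1 library was left out. The exact Poisson 95% intervals, which cover counting error only, were 12.0 to 15.6 and 11.9 to 15.8 FPKM with Tox4 esiRNA, and 36.9 to 42.2 and 33.1 to 38.8 FPKM with Luc esiRNA. In RNA from whole cultures, fewer cells that express a gene and less RNA in each cell cannot be told apart.

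**Figure D1:**
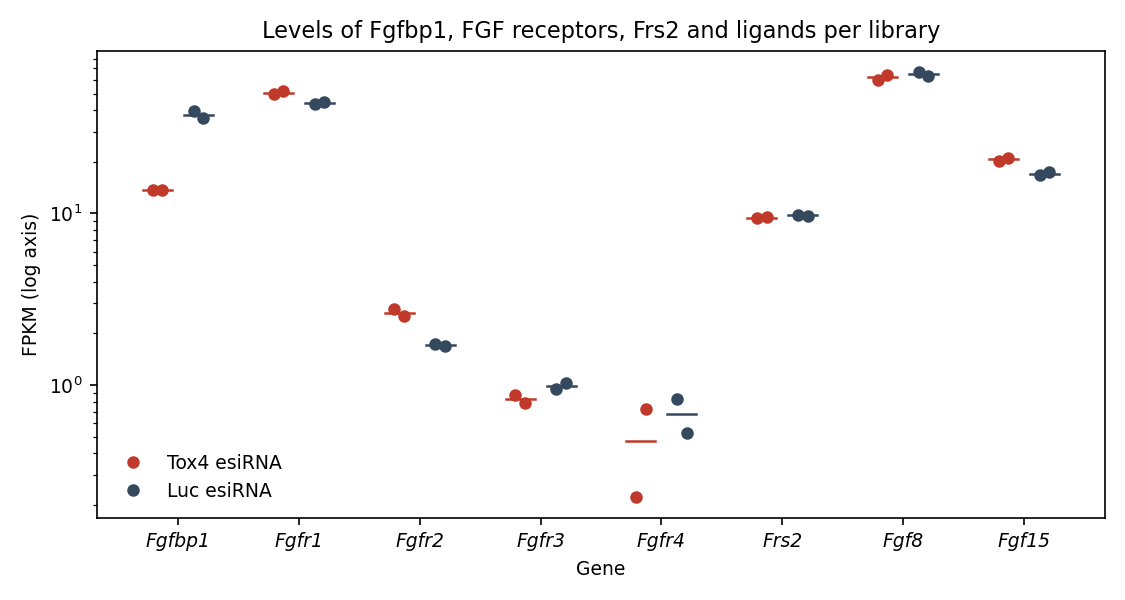
FPKM of the 8 genes in each library on a log axis, with Tox4 esiRNA left of Luc esiRNA for each gene; points are libraries and bars are group means. Fgfbp1 had 13.7 and 13.8 FPKM with Tox4 esiRNA, below 39.5 and 35.9 FPKM with Luc esiRNA, while the points of Fgf8 and Fgfr4 overlap between the groups.

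The gene lies on GRCm38 chromosome 5, bases 43978858 to 43981779 on the minus strand. Its 3 annotated transcripts have 1161, 2191 and 1228 bases in 2, 1 and 3 exons. The table has 1 value for the gene, so the transcripts are not told apart. The nearest protein-coding genes of the table are Prom1, 11.8 kb to one side, and Cd38, 66.5 kb to the other. Prom1, which encodes a membrane glycoprotein of cell protrusions, had 29.6 and 29.3 FPKM with Tox4 esiRNA, against 33.5 and 34.6 FPKM with Luc esiRNA. It was lower with Tox4 esiRNA by -0.20 in log2 (limma adjusted p = 0.0478), and did not pass with any 1 library left out. Cd38 had between 1 and 3 reads in every library and was not tested. Among the 15 tested neighbours of the 8 genes Prom1 alone passed the threshold of 0.05, where 4.51% of all tested genes did. Neighbours were taken only outside the annotated span of each gene. The span of Fgfr2 is wide, and its neighbours Wdr11 and 2700050L05Rik lay 527 and 514 kb away.

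The tested genes whose profiles over the 4 libraries lay nearest to Fgfbp1 were Sfn, Spp1, Gbp2b, Gbp2 and Dok2. Nearness was the Euclidean distance between log2(FPKM + 1) values after each gene's mean was subtracted. The distances were 0.250 to 0.357, against a median of 1.4 over all tested genes. Sfn, which encodes 14-3-3 sigma, a protein of epithelial cells, had 8.39 and 9.17 FPKM with Tox4 esiRNA, against 21.1 and 23.1 FPKM with Luc esiRNA. Spp1, the gene of the matrix protein osteopontin, had 1.47 and 1.70 FPKM with Tox4 esiRNA, against 4.72 and 4.73 FPKM with Luc esiRNA. Gbp2 and Gbp2b encode interferon-induced GTPases, and Dok2 an adaptor that dampens signals of tyrosine kinases. All 5 were lower in both Tox4 esiRNA libraries than in both Luc esiRNA libraries; a profile over 4 libraries in 2 groups holds little beyond that difference.

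Single markers of other cell types were lower beside Fgfbp1, 1 in each of 2 lists. The surface epithelium list had 3 of 6 genes in the table, and its sum was 8.96 to 9.82 FPKM with Tox4 esiRNA, against 23.4 to 23.8 FPKM with Luc esiRNA. Sfn, already named as the nearest profile, made up nearly all of that sum. Krt17 averaged 0.611 FPKM with Tox4 esiRNA and 0.532 FPKM with Luc esiRNA. Krt15 was listed at 0 in 3 of the 4 libraries, and Krt5, Krt14 and Trp63 were not found in the table. The primitive streak and mesoderm list, 6 of 8 in the table, summed to 28.2 to 29.2 FPKM with Tox4 esiRNA and 34.9 to 35.2 FPKM with Luc esiRNA. Of its 6 tested genes 1 passed the limma test as lower, where 2.62% of all tested genes did. It was T, which averaged 5.45 FPKM with Tox4 esiRNA and 12.4 FPKM with Luc esiRNA. The other 5 did not pass. Wnt3 averaged 11.3 FPKM with Tox4 esiRNA and 9.04 FPKM with Luc esiRNA. Lhx1 averaged 2.27 FPKM with Tox4 esiRNA and 2.28 FPKM with Luc esiRNA. Values of Eomes, Tbx6 and Gsc are not given here. The median difference of the 6 was -0.12 in log2(FPKM + 1), beside -0.0034 over all tested genes, so the list leaned lower. The part of these cell types in the Fgfbp1 values was not tested.

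Of the receptors, Fgfr1 was by far the most abundant and stood slightly higher with Tox4 esiRNA. Fgfr1 is the receptor on which epiblast and streak cells mainly rely. It had 49.6 and 51.4 FPKM with Tox4 esiRNA, against 43.4 and 44.4 FPKM with Luc esiRNA, from 5314 to 6667 reads a library. The groups did not overlap, and the means were 50.5 ± 1.29 FPKM with Tox4 esiRNA and 43.9 ± 0.769 FPKM with Luc esiRNA (SD, n = 2 each), a ratio of 1.15. The difference was 0.20 in log2 and lay between 0.17 and 0.22 when 1 library was left out. Among the 33 receptor tyrosine kinases listed here, these 4 included, Fgfr1 had the second highest mean over the 4 libraries, behind Ptk7. The list left out the Eph receptors, which were not ranked. The gene spans bases 25513654 to 25575718 of chromosome 8 on the plus strand, and 164 bases of its exons overlap the opposite-strand gene Gm16159.

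Fgfr2 was scarcer and also higher with Tox4 esiRNA. Its splice forms are used differently in epithelia and in mesenchyme, which a value per gene does not tell apart. It had 2.76 and 2.52 FPKM with Tox4 esiRNA, against 1.73 and 1.69 FPKM with Luc esiRNA. The reads were 207 and 164 with Tox4 esiRNA and 167 and 129 with Luc esiRNA, where the libraries were deeper. The groups did not overlap, and the ratio of means was 1.55, the highest of the 8 genes. The difference was 0.43 on the log2(FPKM + 1) scale, and 0.60 with 0.1 added in place of 1. Fgfr2 lies on chromosome 7, bases 130162451 to 133123350, minus strand.

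Fgfr3 and Fgfr4 were scarce and under the mean of 1 FPKM needed for testing. Fgfr3, best known for restraining growth of long bones, had 0.880 and 0.783 FPKM with Tox4 esiRNA, against 0.953 and 1.03 FPKM with Luc esiRNA. Both Tox4 esiRNA values were lower, but the counting intervals of all 4 libraries overlapped, from 0.649 to 1.17 and 0.551 to 1.08 FPKM with Tox4 esiRNA, and 0.739 to 1.21 and 0.778 to 1.33 FPKM with Luc esiRNA. Up to 998 bases of its exons are shared with the overlapping gene G630022F23Rik. Fgfr4, the receptor through which Fgf15 acts on liver, had 5 and 14 reads with Tox4 esiRNA and 24 and 12 reads with Luc esiRNA. These gave 0.224 and 0.723 FPKM with Tox4 esiRNA, against 0.833 and 0.528 FPKM with Luc esiRNA, so that the groups overlapped. The difference of -0.20 in log2(FPKM + 1) turned to 0.04 without Tox4 esiRNA replicate 1, and with 0.1 added in place of 1 it was -0.57. For Fgfr3 the difference was -0.12 with 1 added and -0.23 with 0.1 added. No difference in Fgfr4 was detectable at this depth. Fgfr3 lies on chromosome 5, bases 33721674 to 33737068, and Fgfr4 on chromosome 13, bases 55152640 to 55168759, both on the plus strand.

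Summed over the 4 receptors, the level was 53.4 and 55.4 FPKM with Tox4 esiRNA, against 46.9 and 47.7 FPKM with Luc esiRNA. Fgfr1 made up 92.8% ± 0.0258 of the sum with Tox4 esiRNA and 92.9% ± 0.487 with Luc esiRNA (SD, n = 2 each). Fgfr2 held 5.16% and 4.55% with Tox4 esiRNA, against 3.68% and 3.54% with Luc esiRNA. Fgfr3 held 1.65% and 1.41% with Tox4 esiRNA, against 2.03% and 2.15% with Luc esiRNA. The share of Fgfr4 overlapped between the groups, at 0.419% and 1.30% with Tox4 esiRNA and 1.78% and 1.11% with Luc esiRNA. The ratio of Fgfr1 to Fgfr2 was 18.0 and 20.4 with Tox4 esiRNA, against 25.1 and 26.3 with Luc esiRNA. The receptor set was thus nearly all Fgfr1 in both groups, with Fgfr2 in a larger share of the small remainder with Tox4 esiRNA.

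Frs2, which docks on the receptors and recruits Grb2, had 9.45 and 9.49 FPKM with Tox4 esiRNA, against 9.81 and 9.71 FPKM with Luc esiRNA, from 695 to 1068 reads a library. The groups did not overlap but lay close together, with a ratio of means of 0.970 and a difference of -0.04 in log2. The counting intervals of all libraries overlapped. They were 8.80 to 10.1 and 8.80 to 10.2 FPKM with Tox4 esiRNA, and 9.23 to 10.4 and 9.07 to 10.4 FPKM with Luc esiRNA. Frs2 lies on chromosome 10, bases 117069427 to 117148534, minus strand.

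Fgf8, a ligand of the epiblast and primitive streak, was the most abundant of the 8 genes and overlapped between the groups. It had 60.2 and 64.2 FPKM with Tox4 esiRNA, against 66.8 and 63.5 FPKM with Luc esiRNA, from 1133 to 1754 reads a library. The means were 62.2 ± 2.81 FPKM with Tox4 esiRNA and 65.1 ± 2.32 FPKM with Luc esiRNA (SD, n = 2 each), a ratio of 0.955, and the difference was -0.07 in log2. The ratio of Fgfbp1 to Fgf8 within a library was 0.227 and 0.215 with Tox4 esiRNA, against 0.591 and 0.565 with Luc esiRNA. The profiles nearest to Fgf8 were those of Rplp0, a ribosomal protein gene, Shisa5 and Ciapin1, at distances of 0.0100 to 0.0146 against a median of 0.171. Fgf8 lies on chromosome 19, bases 45736798 to 45742915, minus strand.

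Fgf15, the mouse counterpart of human FGF19 and a ligand of the embryonic forebrain and midbrain and of the gut, was higher with Tox4 esiRNA. It had 20.3 and 21.2 FPKM with Tox4 esiRNA, against 16.7 and 17.4 FPKM with Luc esiRNA, from 483 to 587 reads a library. The groups did not overlap, and the means were 20.8 ± 0.619 FPKM with Tox4 esiRNA and 17.1 ± 0.505 FPKM with Luc esiRNA (SD, n = 2 each), a ratio of 1.22. The difference was 0.27 in log2. Its nearest profiles were those of Fam171a2, Cpt1c and Tenm4, at distances of 0.00846 to 0.0196 against a median of 0.299. The gene lies on chromosome 7, bases 144896531 to 144900953, plus strand, 31.3 kb from Fgf4, and 787 bases of its exons overlap Gm26793 and Gm39119. Use of strand in the counting is not given in the sources used here, so reads of overlapping genes cannot be told apart. Fgf4 had 1.07 and 1.11 FPKM with Tox4 esiRNA, against 2.05 and 1.52 FPKM with Luc esiRNA, a difference of -0.40 in log2 that did not pass (limma adjusted p = 0.162).

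Some neuroectoderm markers were higher beside Fgf15 and Fgfr1, while the most abundant of their list was not. The list, 5 of 8 in the table, summed to 84.8 to 87.2 FPKM with Tox4 esiRNA, against 75.8 to 76.2 FPKM with Luc esiRNA. Of its 4 tested genes 2 passed the limma test, both higher, where 1.89% of all tested genes were called higher. Sox1 had 12.3 and 13.7 FPKM with Tox4 esiRNA, against 5.28 and 5.57 FPKM with Luc esiRNA. Fabp7 averaged 9.69 FPKM with Tox4 esiRNA and 5.02 FPKM with Luc esiRNA, and Zic1 and Neurog2 were not found in the table. Nes, the most abundant of the list, averaged 49.9 FPKM with Tox4 esiRNA and 52.1 FPKM with Luc esiRNA, Tubb3 averaged 13.0 FPKM in both groups, and Pax6 averaged 0.445 FPKM with Tox4 esiRNA and 0.439 FPKM with Luc esiRNA. The part of neural cells in the values of Fgf15 and Fgfr1 was not tested.

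**Figure D2:**
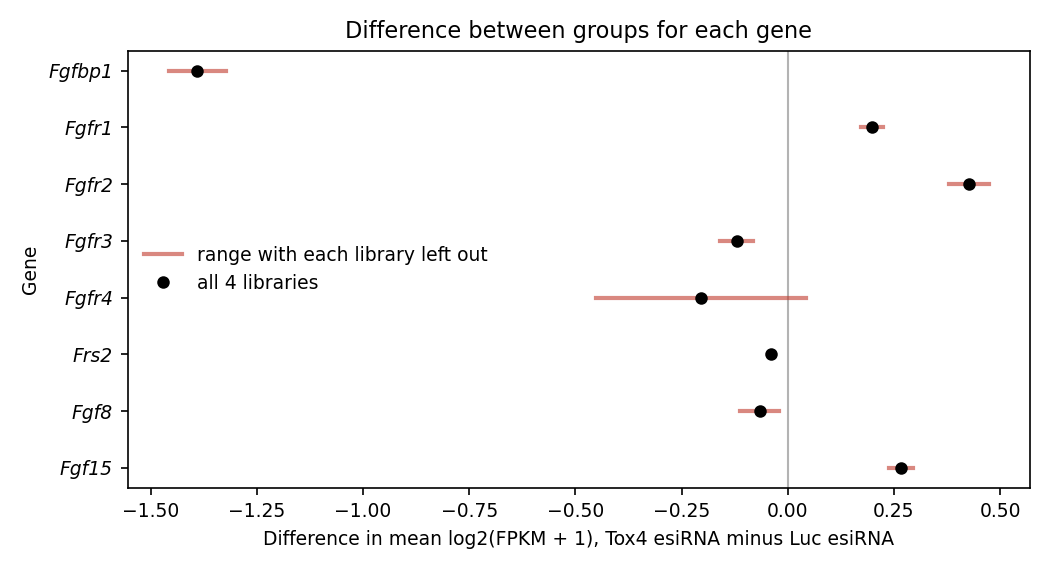
Difference in log2(FPKM + 1), Tox4 esiRNA minus Luc esiRNA, for the 8 genes, with the range when 1 library at a time is left out. Fgfbp1 lies at -1.39, apart from the other 7, which lie between -0.20 for Fgfr4 and 0.43 for Fgfr2; the range of Fgfr4 crosses 0. With 0.1 added in place of 1, Fgfr4 would lie at -0.57, Fgfr3 at -0.23 and Fgfr2 at 0.60.

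The filter of a mean of at least 1 FPKM was passed by 6 of the 8 genes. By limma with Benjamini-Hochberg adjustment over all 12403 tested genes, 2 of the 6 were called higher with Tox4 esiRNA, Fgfr1 and Fgf15. Over all tested genes 1.89% were called higher. Fgfbp1 was called lower, where 2.62% of all tested genes were, and 4.51% were called in either direction. Groups did not overlap for 3 tested members higher with Tox4 esiRNA and 2 lower, and over all tested genes for 25.3% higher and 26.7% lower. The members were chosen with this contrast known, so nothing is read from these counts. Fgfr1 and Fgf15 were not called with any 1 library left out, in fits that called 61 to 437 of all tested genes.

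Within both groups Fgf8 stood first, followed by Fgfr1. With Tox4 esiRNA the order went on with Fgf15, Fgfbp1, Frs2, Fgfr2, Fgfr3 and Fgfr4. With Luc esiRNA it was the same except that Fgfbp1 stood above Fgf15. Within a group every gene lay above the next in both libraries. The order depends on the length by which the authors divided. Worked back from the values, that divisor was not the annotated length but grew with the number of reads. Its median was 1.88% of the annotated exons for genes with 1 read in all, 41.0% for genes with 21 to 100 reads and 83.1% for genes with more than 10000 reads. A short divisor raises the FPKM of scarce genes against abundant ones. FPKM ratios between libraries of 1 gene are not touched. Differences in log2(FPKM + 1) and the filter of 1 FPKM do depend on the divisor. Fgf8 was divided by 1350 bases, all of its annotated exons, Fgfr1 by 7905 (80.1%), Fgfbp1 by 1104 (48.8%) and Fgfr4 by 1481 (41.8%). Per kilobase of longest transcript, Fgfr1 had 77.7 and 80.6 and Fgf8 69.6 and 74.2 reads, scaled to depth in the same way, with Tox4 esiRNA, so that Fgfr1 came first. On the same scale with Luc esiRNA, Fgf8 had 77.2 and 73.4 and Fgfr1 68.0 and 69.7. Fgfbp1 had 6.90 and 6.95 on that scale with Tox4 esiRNA, below Frs2 at 8.24 and 8.28, so that this pair also changed places. With Luc esiRNA Fgfbp1 averaged 19.0 and Frs2 8.51.

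**Figure D3:**
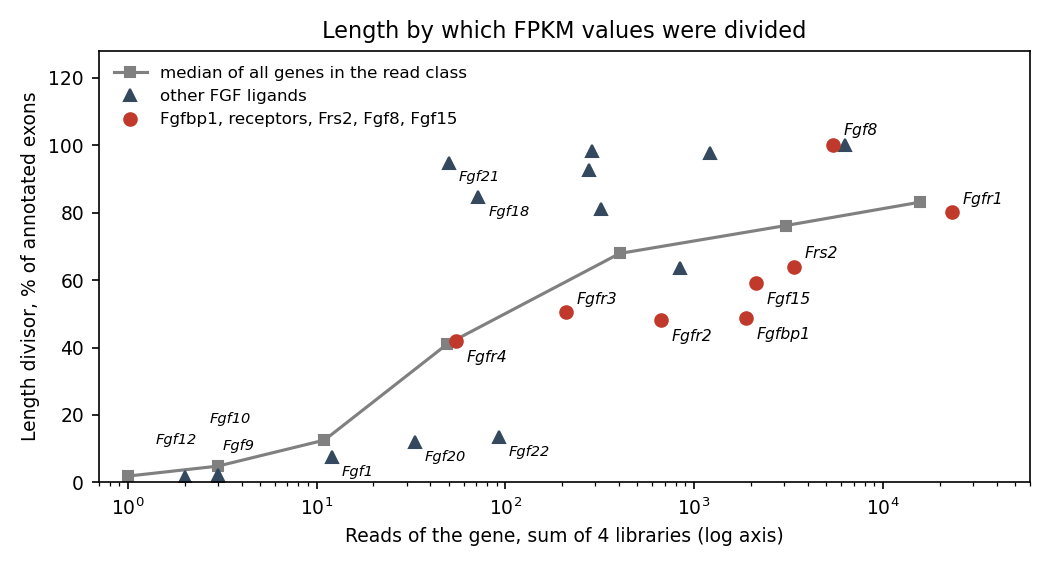
Length by which FPKM values were divided, as a percentage of annotated exon bases, against the reads of the gene summed over 4 libraries on a log axis; circles are the 8 genes, triangles other FGF ligands and squares medians of all genes by read class. The median rises with reads, reaching 83.1% in the class of more than 10000 reads, and Fgf20 and Fgf22 lie far below it.

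The list of other FGF ligands held 20 genes, with FGF homologous factors, which are not secreted, counted among them. Of the 20, 14 were in the table and 9 of those averaged 1 FPKM or more. None passed the limma test in either direction, with a median difference of -0.15 in log2 beside -0.0034 over all tested genes. At an unadjusted p under 0.05 none were higher and 2 were lower, and limma-voom on recovered reads called 1, lower. Fgf5, an epiblast ligand, was the most abundant of them, with 37.6 and 39.6 FPKM with Tox4 esiRNA, against 41.5 and 40.9 FPKM with Luc esiRNA. Fgf11 averaged 6.07 FPKM with Tox4 esiRNA and 6.86 FPKM with Luc esiRNA, and Fgf13 4.72 FPKM with Tox4 esiRNA and 5.55 FPKM with Luc esiRNA. Fgf17, a close relative of Fgf8, averaged 2.29 FPKM with Tox4 esiRNA and 3.14 FPKM with Luc esiRNA. Like Fgf11 and Fgf13, Fgf14 encodes an FGF homologous factor, which stays inside the cell. It averaged 1.71 FPKM with Tox4 esiRNA and 1.33 FPKM with Luc esiRNA, and Fgf18 averaged 1.12 FPKM with Tox4 esiRNA and 1.15 FPKM with Luc esiRNA. Fgf22 and Fgf20 were listed at 5.20 and 2.37 FPKM with Tox4 esiRNA and 4.65 and 2.76 FPKM with Luc esiRNA, but these rested on 92 and 33 reads in all and divisors of 302 and 202 bases. Per kilobase of longest transcript Fgf22 came to 0.725 with Tox4 esiRNA and 0.649 with Luc esiRNA. Fgf2, the ligand of the medium, was not found in the table. Fgf8, Fgf5 and Fgf15 were thus the FGF ligands with means above 10 FPKM.

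**Figure D4:**
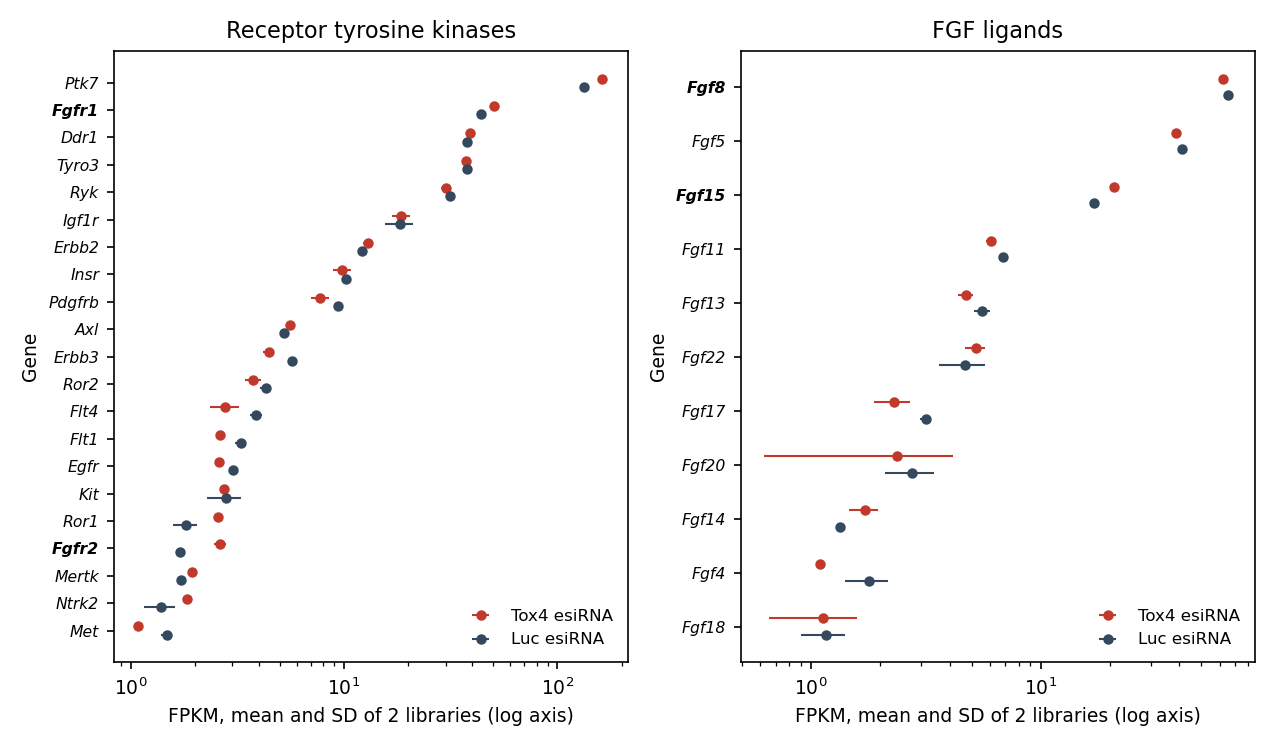
Mean FPKM of FGF ligands, FGF homologous factors included, and of receptor tyrosine kinases with Tox4 esiRNA and Luc esiRNA on a log axis. Genes of at least 1 FPKM are shown. Points are means and lines the SD of 2 libraries. Fgf8, Fgf5 and Fgf15 lead the ligands. Fgfr1, at 50.5 FPKM with Tox4 esiRNA and 43.9 FPKM with Luc esiRNA, is second to Ptk7 among the listed kinases, which leave out Eph receptors.

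Around the members, 7 lists of pathway genes held 156 names, of which 133 were in the table and 112 were tested. Of the 112, 6 were higher with Tox4 esiRNA, 3 lower and 103 not past the threshold. Over all tested genes, 1.89% were called higher and 2.62% lower, and these shares belong beside the counts of each list below. These lists were drawn up with earlier results of these data known. Of 12 other FGF-binding proteins and co-receptors, 6 were tested and 1 was higher, none lower, with a median difference of 0.08. It was Ncam1, a cell adhesion molecule that can bind FGF receptors, with 18.9 and 17.5 FPKM with Tox4 esiRNA, against 14.2 and 14.1 FPKM with Luc esiRNA (limma adjusted p = 0.0285). Fgfbp3, a relative of Fgfbp1, averaged 41.9 ± 0.391 FPKM with Tox4 esiRNA and 40.4 ± 1.59 FPKM with Luc esiRNA (SD, n = 2 each), a difference of 0.05 with an SE of 0.04 (limma adjusted p = 0.536). Its mean thus stood above that of Fgfbp1 in both groups as listed. With Luc esiRNA the libraries of the genes overlapped, at 41.6 and 39.3 FPKM for Fgfbp3 and 39.5 and 35.9 FPKM for Fgfbp1. Il17rd, an inhibitor of FGF signalling at the membrane, averaged 35.9 FPKM with Tox4 esiRNA and 33.1 FPKM with Luc esiRNA and did not pass.

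Fgfbp1 and FGFs bind heparan sulfate. Of 14 proteoglycan core proteins, 13 were tested, 1 was higher and none lower, with a median difference of 0.02. Sdc1, the core protein of syndecan-1, had 25.2 and 26.3 FPKM with Tox4 esiRNA, against 20.9 and 21.3 FPKM with Luc esiRNA (limma adjusted p = 0.0308). The glypican Gpc1 averaged 79.2 FPKM with Tox4 esiRNA and 73.9 FPKM with Luc esiRNA, and Gpc3 averaged 65.0 FPKM with Tox4 esiRNA and 69.2 FPKM with Luc esiRNA; neither passed. Of 22 enzymes that build or trim heparan sulfate, 14 were tested, 1 was higher and none lower, with a median of 0.02. Sulf2, an extracellular enzyme that removes sulfate groups from heparan sulfate, had 49.9 and 50.5 FPKM with Tox4 esiRNA, against 34.9 and 35.9 FPKM with Luc esiRNA. The difference was 0.49 in log2 with an SE of 0.04 (limma adjusted p = 0.00375), and it passed under all 12 alternatives, the highest adjusted p being 0.0464. Its relative Sulf1 averaged 49.4 FPKM with Tox4 esiRNA and 48.3 FPKM with Luc esiRNA (limma adjusted p = 0.756). Extl3, which starts the chain, averaged 24.6 FPKM with Tox4 esiRNA and 24.0 FPKM with Luc esiRNA.

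Downstream of the receptors, all 30 adaptors and Ras-ERK transducers were tested and 1 was lower, none higher, with a median of -0.01. Mapk3, the kinase ERK1, had 58.8 and 58.4 FPKM with Tox4 esiRNA, against 69.8 and 68.4 FPKM with Luc esiRNA, a difference of -0.23 (limma adjusted p = 0.0252). Map2k1, the kinase above it, averaged 67.1 FPKM with Tox4 esiRNA and 73.5 FPKM with Luc esiRNA (limma adjusted p = 0.0991). The adaptor Shc1 averaged 56.7 FPKM with Tox4 esiRNA and 61.0 FPKM with Luc esiRNA (limma adjusted p = 0.149).

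Of 22 feedback inhibitors and targets of FGF signalling, 21 were tested, 2 were higher and 2 lower, with a median of 0.11. Ier3, an early response gene, had 31.6 and 32.9 FPKM with Tox4 esiRNA, against 60.7 and 64.5 FPKM with Luc esiRNA, a difference of -0.93 with an SE of 0.05 (limma adjusted p = 0.00181). Etv5, a transcription factor induced by FGF, had 39.3 and 36.3 FPKM with Tox4 esiRNA, against 46.4 and 44.6 FPKM with Luc esiRNA (limma adjusted p = 0.0469). Spry2, an inhibitor of the pathway that FGF induces, had 33.8 and 33.5 FPKM with Tox4 esiRNA, against 28.2 FPKM in both Luc esiRNA libraries (limma adjusted p = 0.0270). The cyclin Ccnd1 averaged 32.0 FPKM with Tox4 esiRNA and 27.3 FPKM with Luc esiRNA (limma adjusted p = 0.0488). The targets that passed thus moved in both directions. At an unadjusted p under 0.05, 9 of the list were higher and 4 lower, and limma-voom called 5 higher and 3 lower.

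Of 36 other listed receptor tyrosine kinases, Eph receptors not among them, 19 were tested. Of these, 1 was higher and none lower, with a median of -0.02. Ptk7, a receptor of planar cell polarity whose kinase is inactive, had 159 and 165 FPKM with Tox4 esiRNA, against 132 and 135 FPKM with Luc esiRNA (limma adjusted p = 0.0186). Ddr1, a collagen receptor, averaged 38.9 FPKM with Tox4 esiRNA and 37.9 FPKM with Luc esiRNA, and Tyro3 37.2 FPKM with Tox4 esiRNA and 37.7 FPKM with Luc esiRNA. Where limma called none of a list in a direction, an unadjusted p under 0.05 gave 0 to 4 genes and limma-voom 0 to 5. Of the 9 list genes past the threshold, Sulf2 and Ier3 passed with every library left out in turn. Ncam1, Sdc1, Mapk3, Spry2, Ccnd1, Etv5 and Ptk7 each lost the call with at least 1 library left out, with adjusted p up to 0.236. Without the first or without the second Luc esiRNA library, each of these 7 did not pass.

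**Figure D5:**
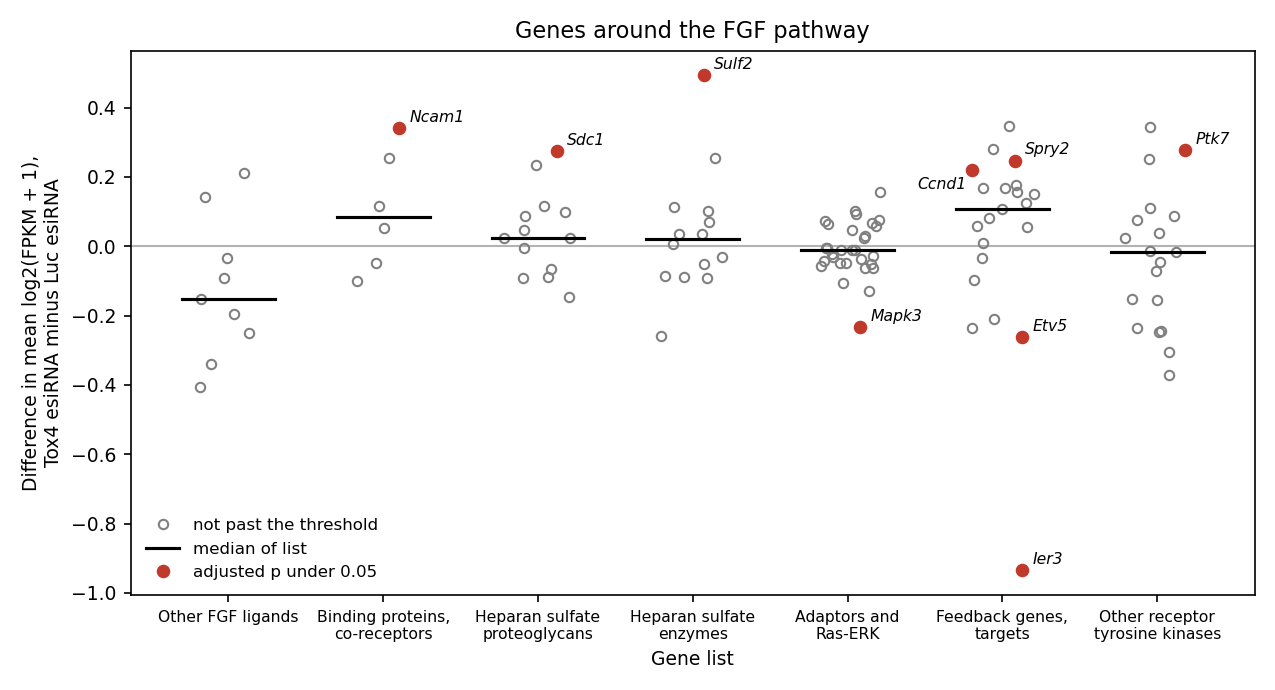
Difference in log2(FPKM + 1), Tox4 esiRNA minus Luc esiRNA, of each tested gene of the 7 lists; filled points passed the limma threshold of 0.05, and bars are medians. List medians lie between -0.15 and 0.11, and Ier3 at -0.93 and Sulf2 at 0.49 lie farthest out among the points that passed.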

How the data were processed

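Poly(A) RNA was measured in 2 Tox4 esiRNA and 2 Luc esiRNA libraries. The authors deposited FPKM values per gene; the submitters' processing notes name CASAVA 1.8, STAR 2.3.0e and the build GRCm38.p1, and the counting program is not given in the sources used here. Coordinates and exon lengths came from the mouse GENCODE M21 annotation of GRCm38, and promoters from RefSeq (GRCm38.p6).

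Whole reads were worked back from the deposited FPKM values, with 100% of genes giving whole reads to a relative error of at most 6.0e-15. For 4.46% of genes a common factor was open and the smallest whole numbers were taken. The limma test (3.58.1, R 4.3.3) was two-sided, used an intensity trend and ran on log2(FPKM + 1) of the 12403 genes averaging 1 FPKM or more, with Benjamini-Hochberg adjustment and a threshold of 0.05. The fit had 2 residual and 4.01 prior degrees of freedom. It was also run on simulated reads with the same spread setting for every gene. The outcome is not given here, and nothing is drawn from it. Replicates differed by more than sampling noise (chi-square per degree of freedom 1.88 with Tox4 esiRNA and 1.59 with Luc esiRNA), and mitochondrial genes took 1.05% of reads in both Tox4 esiRNA libraries, against 0.864% and 0.840% in the Luc esiRNA libraries.

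The members and lists were chosen with earlier results of these data known. The text names all members, Tox4, Pou5f1 and, from each list, every gene past the threshold up to 6, or else the genes with the highest mean until 3 are named. FGF ligands of at least 1 FPKM, the nearest neighbours in the genome and the nearest profiles may also be named; the keratins and the markers that did not pass were chosen after their values were seen. The alternatives were pseudocounts of 0.1 and 0.5, no filter, a mean of at least 5 FPKM, no intensity trend, a replicate block, median-ratio scaling, limma-voom on recovered reads, and each library left out. The receptor shares by longest transcript were added after seeing the data.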

Additional observations from a re-analysis of the deposited data

How the results depend on the processing

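Fgfbp1 was lower with Tox4 esiRNA under all alternatives run, by -1.46 to -1.32 in log2 with 1 library left out. Over all tested genes, 234 were higher and 325 lower with Tox4 esiRNA; without a filter on low values these were 146 and 202, without an intensity trend 33 and 45, and with limma-voom on recovered reads 739 and 723. With a mean of at least 5 FPKM, 365 were higher. With 1 library left out, 27 to 176 were higher and 34 to 296 lower; leaving out either Luc esiRNA library gave the fewest, 27 and 28 higher and 34 and 35 lower. With the replicate block, 222 genes were higher and 334 lower; the deviations of same-numbered libraries from their group means correlated at -0.036, and the labels do not say whether a number marks a shared day or culture. The 6 higher and 3 lower list genes became 1 and 1 without an intensity trend, 13 and 11 with limma-voom, and 1 to 3 in each direction with 1 library left out. The Fgfr1 share of the receptors was 95.9% with Tox4 esiRNA and 96.4% with Luc esiRNA by reads, 95.3% with Tox4 esiRNA and 95.7% with Luc esiRNA by longest transcript, and 92.7% to 92.8% with Tox4 esiRNA and 92.5% to 93.2% with Luc esiRNA with 1 library left out. Of 263 values of 22 called genes that are no members, 207 kept their side of the threshold, 56 did not pass and 0 changed direction; the cause of these changes was not tested. Of the members, Fgfr4 alone changed sign. The calls of Fgfr1 and Fgf15 were lost without the filter and without the intensity trend. That of Fgfr1 was also lost with a pseudocount of 0.1 and with the replicate block. By limma-voom Fgfr2 was called higher as well. With a pseudocount of 0.1, Fgfr4 was -0.57 and Fgfr3 -0.23. Fgfr2 was 0.43 in the main setting, 0.60 with a pseudocount of 0.1 and 0.63 by limma-voom. Fgfr3 and Fgfr4 rested on only 209 and 55 reads over the 4 libraries, and both stood under the filter of the main fit.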
